A study of Homo sapiens with 10 samples.

Results

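The 2 control sets of an RNA-Seq study were set against each other, gene by gene. Both sets are EA.hy926, an established human cell line made by fusing umbilical vein endothelial cells with a lung carcinoma line, and neither carries a deletion. In the study, guide RNAs and Cas9 were used to delete *VEGFA-LNC* or *VEGFC-LNC*, long noncoding RNAs (lncRNAs) from the *VEGFA* and *VEGFC* loci. The *VEGFA-LNC* controls (2 libraries) and the *VEGFC-LNC* controls (2 libraries) were cells given guide RNAs alone, without the nuclease, and the labels call all 10 libraries clones. In the study such controls passed through the clonal selection that was used for the deletions. Which guide RNAs each set received is not stated. The other 6 libraries came from homozygous deletion clones, 3 per lncRNA. All cells were grown in high-glucose medium with serum, with no further treatment, and total RNA was depleted of ribosomal RNA before sequencing. The labels do not say whether the 2 libraries of a control set came from separate clones or cultures, so that the spread within a control set may be technical. The p-values below rest on that spread and, for the larger part, on the spread between the clones of a deletion. The sets may also differ in whatever else went with them, such as the guide RNAs given and the cells expanded, and these cannot be told apart. Genes were included when FPKM (fragments scaled to gene length and library depth) multiplied by length in kilobases, which gives cpm (reads scaled to depth alone), was at least 1 in 2 or more of the 10 libraries. This held for 13333 of 27945 gene symbols. Of these, 75 reached the minimum in *VEGFA-LNC* controls and no other library, and 20 in *VEGFC-LNC* controls and no other library. Such genes had to differ between the sets, and they are no support for a list.

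Dividing cells make replication enzymes, core histones and the machinery of mitosis, and they need newly made sterols and fatty acids for membranes. Stress engages other well-known programmes, among them the p53 pathway, which halts the cycle through *CDKN1A*, the integrated stress response, which acts through ATF4, ATF3 and DDIT3, and NF-κB, which drives chemokines and its own inhibitors. These programmes guided the choice of part of the gene lists described here. All lists were chosen with earlier results of these data known.

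The 4 libraries held between 9493607 reads (*VEGFC-LNC* control 1) and 24197620 reads (*VEGFC-LNC* control 2). The libraries of a set were close to each other. A tested gene differed by a median of 0.0919 on the log2 scale between the 2 *VEGFA-LNC* controls and by 0.0904 between the 2 *VEGFC-LNC* controls, and 2.42% and 3.18% of genes were at least 1.5-fold apart. A library of one set differed from a library of the other by a median of 0.385 to 0.417. For comparison, 2 clones of the same deletion differed by 0.208 to 0.444. A chi-square test of the reads gave 3.76 and 1.54 per gene within the control sets, above counting noise, and 18.3 to 138 between clones of a deletion. Technical repeats can also exceed counting noise, so that this does not show that the libraries of a set are separate samples. They were counted as 2 samples, as the labels list them.

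In a single limma fit of all 10 libraries, 1690 genes were differentially expressed (DEGs, with an FDR under 0.05 and a fold change of at least 1.5) between the control sets, 12.7% of those tested. Of these, 389 genes (2.92%) were higher in the *VEGFC-LNC* controls and 1301 genes (9.76%) were lower. All fold changes (FCs) are given as *VEGFC-LNC* controls over *VEGFA-LNC* controls, on the scale of log2(FPKM + 0.1). The median log2 FC was 1.00 for the DEGs that were higher and −1.07 for those that were lower. An FC of at least 4-fold was seen for 22 higher and 180 lower DEGs, and at least 16-fold for 15 lower DEGs and 0 higher ones. Both libraries of one set lay beyond both of the other for 82.9% of all tested genes, so that such a separation is the rule here and is not in itself a mark of a DEG. The number of DEGs depended on how the spread was estimated. It was 4401 with the spread of the 4 control libraries alone (33.0% of tested genes, 1654 higher and 2747 lower), 3068 without *VEGFA-LNC* deletion clone 1, and 0 when the libraries of a set were averaged into 1 sample, where 1224 genes had an unadjusted p under 0.05. With 1 control library left out, 46 or 34 DEGs were left without *VEGFA-LNC* control 1 or 2, and 33 or 77 without *VEGFC-LNC* control 1 or 2. Among the DEGs, 48 lower and 8 higher ones were genes that passed the minimum through 1 control set alone, which leaves 1253 lower and 381 higher.

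The median log2 FC of all tested genes was −0.11, and scaling the libraries by median of ratios moved it to −0.0043. The DEGs were then 587 higher and 906 lower, so that the share of higher DEGs went from 23.0% to 39.3%.

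The identity of the cells was compared first. The endothelial markers *PECAM1* (31.2 and 32.8 against 35.3 and 32.9 FPKM), *CDH5*, encoding the cadherin of endothelial junctions (111 and 116 against 119 and 118 FPKM), *TEK* (21.3 and 21.9 against 16.8 and 16.2 FPKM) and *ENG* (305 and 304 against 227 and 219 FPKM) were expressed in both sets, and none of the 9 tested endothelial markers was a DEG. The spread of these markers between the clones enters the test, and *PECAM1* ran from 13.9 to 159 FPKM in the clones. *ESAM* had the largest difference of the 9, at 39.8 and 39 against 66.4 and 69.2 FPKM (log2 FC 0.78, FDR 0.275). *VWF* was low, at 0.772 and 0.998 against 1.21 and 1.03 FPKM, and *CLDN5* was listed at 0 in all libraries. The epithelial keratins *KRT8* (285 and 282 against 324 and 316 FPKM) and *KRT18* (287 and 283 against 333 and 335 FPKM) were expressed in both sets as well, while *CDH1* and *EPCAM* stayed at or under 0.505 FPKM. *KRT7* was at 504 and 522 against 253 and 247 FPKM, log2 FC −1.04 with an FDR of 0.135. Of the 6 blood markers, 5 were at or under 0.1 FPKM in all 4 control libraries, and the sum of the 7 fibroblast markers was 0.751 to 0.786 FPKM in the *VEGFA-LNC* controls and 0.167 to 0.221 FPKM in the *VEGFC-LNC* controls, with 1 of 3 tested markers a DEG (*COL1A1*, which passed the minimum through the *VEGFA-LNC* controls alone). In a further list of leukocyte genes 4 of 20 were tested and 2 were lower (50% called, against 12.7% of all genes), with a median log2 FC of −1.39. They were *CD68*, a lysosomal protein of macrophages and other cells (50.2 and 45.9 against 25.8 and 25.3 FPKM, log2 FC −0.91, SE 0.14, FDR 0.0078), and *ITGAM* (0.452 and 0.555 against 0.067 and 0.061 FPKM), which passed the minimum through the *VEGFA-LNC* controls alone. Of 9 tested genes of an epithelial list 1 was lower (11.1% called, near the 12.7% of all genes), the tight junction gene *CLDN1* (8.74 and 9.21 against 1.77 and 1.55 FPKM, log2 FC −2.37, SE 0.35, FDR 0.00714). Among 34 genes of endothelial identity, 1 was higher (*EGFL7*), 0 were lower (2.94% called, against 12.7% of all genes) and the median log2 FC was 0.08. With the spread of the 4 control libraries alone 5 of them were higher and 6 lower, where 33.0% of all tested genes were DEGs.

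Genes of chemokines, cytokines and NF-κB targets stood lowest of the functional lists. Of 32 tested members, 14 were lower and 1 was higher in the *VEGFC-LNC* controls (46.9% called, against 12.7% of all genes), and the median log2 FC was −2.16 against −0.11 for all genes. *CXCL8*, encoding the neutrophil chemoattractant interleukin-8, was expressed at 33 and 33.1 FPKM in the VEGFA-LNC controls and 0.93 and 1.22 FPKM in the VEGFC-LNC controls (log2 FC −4.83, SE 0.86, FDR 0.0125). *BIRC3*, an inhibitor of apoptosis and a classical NF-κB target, was at 9.93 and 9.89 FPKM in the VEGFA-LNC controls and 0.29 and 0.21 FPKM in the VEGFC-LNC controls (log2 FC −4.85, SE 0.70, FDR 0.00668). For both genes the 2 sets were far apart, with 15 to 50 reads in the low libraries and 976 to 1541 reads in the high ones. *CCL26*, an eosinophil chemokine that passed the minimum through the *VEGFA-LNC* controls alone (13 lower members without it), was at 10.2 and 10.04 against 0.379 and 0.446 FPKM (log2 FC −4.32, SE 0.91, FDR 0.0208). *TRAF1*, an adaptor of tumour necrosis factor receptors, was at 28.5 and 28.1 against 1.62 and 1.55 FPKM (log2 FC −4.08, SE 0.62, FDR 0.00734). *NFKBIE*, which encodes an inhibitor of NF-κB, was at 8.22 and 9.04 against 1.97 and 1.51 FPKM (log2 FC −2.26, SE 0.33, FDR 0.0067).
Further members were chosen after their values were seen. *TNFAIP3*, encoding the ubiquitin-editing brake on NF-κB, was at 12.8 and 12.8 against 0.855 and 0.795 FPKM (log2 FC −3.80), *RELB*, an NF-κB subunit, at 10.2 and 12.3 against 1.26 and 1.17 FPKM (log2 FC −3.11) and *IL6* at 3.41 and 3.71 against 0.267 and 0.35 FPKM (log2 FC −3.17), and all 3 were DEGs. The inhibitor gene *NFKBIA* was not one, at 78.5 and 82.8 against 108 and 111 FPKM, nor were *CCL2* (174 and 182 against 53.8 and 55.9 FPKM, FDR 0.188) and *ICAM1* (18.5 and 18.1 against 4.39 and 4.2 FPKM, FDR 0.107). *IL33*, a nuclear alarmin, was the DEG of this list that was higher in the *VEGFC-LNC* controls, at 1.13 and 0.953 against 2.1 and 2.33 FPKM (log2 FC 1.03). A positive log2 FC was seen for 6 of the 32 members, up to 3.03 in a member that was no DEG. With the spread of the control libraries alone 3 members were higher. The count of 14 became 26 with the spread of the control libraries alone, 23 without *VEGFA-LNC* deletion clone 1, 8 with a filter of 1 cpm in all 4 controls, and 0 without any 1 of the 4 control libraries.

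The 250 bases before the start of each tested transcript were searched on hg19 on both strands for a form of the NF-κB site, GGG followed by any 2 bases and TTTCC. It was found for 9 of the 32 genes of the NF-κB list (28.1%), for 1.84% of all tested genes, for 2.0% of the genes that were lower and for 1.03% of those that were higher. The motif thus belonged to the list, and its share among the lower DEGs as a whole was near that of all genes. The window of *BIRC3* (chr11:102187931-102188180, plus strand), a lower DEG with a match, is shown with the match in capitals. It begins 165 bases before the start. No match was found in the windows of *CXCL8* or *TRAF1*, which says only that these letters are not there.
*BIRC3*: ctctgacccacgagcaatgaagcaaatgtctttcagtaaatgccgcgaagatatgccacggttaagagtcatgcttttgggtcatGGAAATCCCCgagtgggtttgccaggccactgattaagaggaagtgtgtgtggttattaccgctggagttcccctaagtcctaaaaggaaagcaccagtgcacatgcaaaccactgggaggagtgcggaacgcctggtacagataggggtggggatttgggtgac

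Many targets of p53 were lower. Of 28 tested members, 16 were lower and 0 higher (57.1% called), 27 had a negative log2 FC and the median was −1.10. *CDKN1A*, encoding the cyclin-dependent kinase inhibitor p21, was at 165 and 174 FPKM in the VEGFA-LNC controls and 40.5 and 38.8 FPKM in the VEGFC-LNC controls (log2 FC −2.09, SE 0.39, FDR 0.0147). *PHLDA3*, an inhibitor of AKT, was at 33.1 and 35.3 against 6.23 and 8.36 FPKM (log2 FC −2.23, SE 0.23, FDR 0.00253). The antiproliferative gene *BTG2* was at 39 and 41.3 against 8.68 and 9.21 FPKM (log2 FC −2.16, SE 0.46, FDR 0.0214). *FAS*, the death receptor, was at 7.93 and 7.58 against 1.78 and 1.59 FPKM (log2 FC −2.14, SE 0.54, FDR 0.0358). In each of them the sets did not overlap, as held for 82.9% of all tested genes. Chosen after their values were seen, *MDM2*, the ubiquitin ligase that turns p53 over, was at 104 and 111 against 39.3 and 40.7 FPKM (log2 FC −1.43), *SESN2* at 19.5 and 20.7 against 5.15 and 4.98 FPKM (log2 FC −1.97) and *FDXR* at 45 and 47.4 against 19.4 and 17.4 FPKM (log2 FC −1.32), and all 3 were DEGs, while *TP53I3* was not, at 41.2 and 46.1 against 19 and 20.9 FPKM (FDR 0.163). The count of 16 was 22 with the spread of the controls alone, and 4 and 3 without *VEGFA-LNC* control 1 and 2 or 3 and 4 without *VEGFC-LNC* control 1 and 2.

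The stress-responsive transcription factors were among the most strongly different genes. *ATF3*, an immediate-early and stress-induced repressor that both the stress and the immediate-early list contained, was at 85.1 and 87.5 FPKM in the VEGFA-LNC controls and 4.51 and 4.36 FPKM in the VEGFC-LNC controls (log2 FC −4.25, SE 0.33, FDR 0.00137). *DDIT3*, encoding the pro-apoptotic factor CHOP of the endoplasmic reticulum stress response, was at 110.0 and 104 FPKM in the VEGFA-LNC controls and 10.2 and 9.79 FPKM in the VEGFC-LNC controls (log2 FC −3.41, SE 0.31, FDR 0.00199). *CHAC1*, a glutathione-degrading enzyme induced by ATF4, was at 7.9 and 7.28 against 1.04 and 0.815 FPKM (log2 FC −2.91, SE 0.53, FDR 0.0136). *CEBPB* was at 21 and 25.2 against 4.3 and 5.08 FPKM (log2 FC −2.28, SE 0.37, FDR 0.00972). Of the 31 tested genes of the ATF4 and endoplasmic reticulum stress list, 10 were lower and 0 higher (32.3% called), with a median log2 FC of −0.85. The amino acid synthesis gene *ASNS*, a main target of ATF4, was at 20.7 and 20 against 15.5 and 15.5 FPKM (FDR 0.8), so that the list did not move as one. *GADD45A* (147 and 131 against 26.7 and 24.9 FPKM), *GADD45B* (55 and 54 against 6.92 and 7.21 FPKM) and *PPP1R15A* (107 and 96.1 against 19.5 and 20.6 FPKM), which encode growth arrest and DNA damage-inducible proteins, were DEGs with log2 FCs of −2.42, −2.93 and −2.34. These 3 were chosen after their values were seen. The count of 10 was 18 with the spread of the controls alone and 3 without any 1 control library.

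Of 24 immediate-early genes, which respond within minutes to growth factors and stress, 9 were lower and 0 higher (37.5% called, median log2 FC −0.66). Besides *ATF3* these included *KLF4*, a transcription factor of quiescent endothelium (2.98 and 3.51 against 0.695 and 0.732 FPKM, log2 FC −2.03, SE 0.29, FDR 0.00668), *NR4A3* (0.409 and 0.354 against 0.037 and 0.044 FPKM, log2 FC −1.78, SE 0.49, FDR 0.0471) and *FOS* (3.82 and 3.6 against 1.22 and 0.845 FPKM, log2 FC −1.77, SE 0.33, FDR 0.0146). *DUSP1*, a phosphatase of MAP kinases, was at 44.6 and 49.9 against 15 and 15.2 FPKM (log2 FC −1.63). *EGR1* was no DEG, at 15.4 and 11.9 against 2.39 and 2.08 FPKM (FDR 0.0969), nor was *MYC*, at 42.1 and 36.4 against 28.5 and 27.9 FPKM (FDR 0.536). These 3 were chosen after their values were seen. Median-of-ratios scaling reduced the count of 9 to 5, and 1 or 2 members were left without 1 control library (2 and 1 without *VEGFA-LNC* control 1 and 2, 1 and 2 without *VEGFC-LNC* control 1 and 2).

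Antioxidant genes under NRF2 were lower in part. *HMOX1*, encoding the haem-degrading heme oxygenase 1, was at 140.2 and 146 FPKM in the VEGFA-LNC controls and 11.4 and 11.9 FPKM in the VEGFC-LNC controls (log2 FC −3.60, SE 0.47, FDR 0.00535). *OSGIN1* was at 28.2 and 28.9 against 4.2 and 4.26 FPKM (log2 FC −2.73, SE 0.50, FDR 0.0137). *SRXN1*, which repairs peroxiredoxins, was at 65.6 and 68.7 against 24.5 and 22.1 FPKM (log2 FC −1.52, SE 0.31, FDR 0.0189). *ME1*, malic enzyme, was at 37.2 and 39.9 against 12.3 and 14.9 FPKM (log2 FC −1.50, SE 0.17, FDR 0.00359). In all, 7 of 20 members were lower and 0 higher (35% called, median log2 FC −0.46), and 0 or 1 were called without 1 control library. The aldo-keto reductases *AKR1B10* (6.39 and 7.05 against 0.199 and 0.313 FPKM, log2 FC −4.28, SE 0.68, FDR 0.00878), *AKR1B1* (414 and 457 against 90.8 and 85.5 FPKM, log2 FC −2.30, SE 0.50, FDR 0.023) and *AKR1C3* (6.83 and 8.4 against 3.47 and 3.92 FPKM, log2 FC −1.02, SE 0.27, FDR 0.0435) belonged to the 4 of 13 genes of xenobiotic and aldehyde metabolism that were lower (30.8% called, against 12.7% of all genes). Without a member that passed the minimum through the *VEGFA-LNC* controls alone, 3 were lower. *SAT1*, the rate-limiting enzyme of polyamine breakdown, was picked out after its values were seen, at 85.2 and 75.1 against 6.41 and 6.11 FPKM (log2 FC −3.66, SE 0.44, FDR 0.00432).

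The pathway of TGF-β and bone morphogenetic proteins (BMPs) held lower genes and no higher ones. Of 34 tested members, 13 were lower (38.2% called), 20 others had a negative log2 FC without passing the test, and the median was −0.91. Without the 2 members that passed the minimum through the *VEGFA-LNC* controls alone, 11 were lower. Among the ligands and their antagonists, *INHBA*, encoding the activin A subunit, was at 5.77 and 5.53 against 0.678 and 0.525 FPKM (log2 FC −3.04, SE 0.73, FDR 0.0307). *FST*, encoding the activin antagonist follistatin, was at 1.13 and 0.922 against 0.058 and 0.023 FPKM (log2 FC −3.01, SE 0.76, FDR 0.0359). Among the targets, *ID2*, a dominant-negative helix-loop-helix factor, was at 6.26 and 4.92 FPKM in the VEGFA-LNC controls and 0.31 and 0.608 FPKM in the VEGFC-LNC controls (log2 FC −3.39, SE 0.53, FDR 0.00813), and the protease inhibitor gene *SERPINE2* was at 14.4 and 15.3 against 1.26 and 1.03 FPKM (log2 FC −3.60, SE 0.53, FDR 0.00689). Chosen after their values were seen, the inhibitory gene *SMAD7* was at 9.66 and 11.1 against 1.75 and 1.92 FPKM (log2 FC −2.44) and *ID3* at 63.9 and 63.2 against 15 and 15.9 FPKM (log2 FC −2.03). All of these were DEGs, whereas *ID1* was not (84 and 93.8 against 78.5 and 68.6 FPKM, FDR 0.717). The count of 13 was 22 with the spread of the controls alone, 8 under the stricter filter and 0 without any 1 control library.

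Some matrix and adhesion genes were lower as well. Of 42 tested genes of the basement membrane and extracellular matrix, 7 were lower and 1 was higher (19% called, median log2 FC −0.71). *COL5A1*, a fibrillar collagen, was at 21.7 and 22 FPKM in the VEGFA-LNC controls and 6.52 and 6.19 FPKM in the VEGFC-LNC controls (log2 FC −1.77, SE 0.21, FDR 0.00402). *THBS1*, the antiangiogenic thrombospondin 1, was at 479 and 505 against 194 and 189 FPKM (log2 FC −1.36, SE 0.30, FDR 0.023). *LAMB3* was at 56 and 58.4 against 21.9 and 22.8 FPKM (log2 FC −1.35, SE 0.30, FDR 0.0234). *LAMA5*, an endothelial laminin chain, was the higher one, at 24.8 and 26.7 against 46.1 and 45.7 FPKM (log2 FC 0.83, SE 0.19, FDR 0.0242). Of 17 integrin subunits, 4 were lower and 0 higher (23.5% called), or 3 without *ITGAM*. They included *ITGAV* (78.6 and 80.3 against 17.5 and 18.8 FPKM, log2 FC −2.12, SE 0.18, FDR 0.00137) and its partners *ITGB3* (50.5 and 54.5 against 19 and 18.6 FPKM, log2 FC −1.48, SE 0.33, FDR 0.0252) and *ITGB8* (4.5 and 4.68 against 0.637 and 0.764 FPKM, log2 FC −2.56, SE 0.57, FDR 0.0237), which form receptors for vitronectin and for latent TGF-β. Of 15 mesenchymal genes, 5 were lower and 0 higher (33.3% called, against 12.7% of all genes), or 4 lower without *COL1A1*. Among them were *ACTA2*, smooth muscle actin (19.8 and 19.5 against 0.95 and 0.659 FPKM, log2 FC −4.47, SE 1.19, FDR 0.0412), *FN1*, fibronectin (48.9 and 50.8 against 4.41 and 4.36 FPKM, log2 FC −3.48, SE 0.78, FDR 0.0249), and *SNAI1*, the repressor of epithelial genes (10.9 and 11.4 against 5.7 and 4.18 FPKM, log2 FC −1.17, SE 0.29, FDR 0.0346). The count of matrix genes was 21 with the spread of the controls alone, 16 without *VEGFA-LNC* deletion clone 1, 12 with no filter on low values and 0 or 1 without 1 control library.

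Both genes after which the controls are named differed between the sets. *VEGFA*, the main angiogenic growth factor, was expressed at 10.2 and 9.62 FPKM in the VEGFA-LNC controls and 3.23 and 3.84 FPKM in the VEGFC-LNC controls, with 450 and 552 reads against 78 and 236 (log2 FC −1.46, SE 0.29, FDR 0.0172). *VEGFC*, the lymphangiogenic growth factor, was at 16.1 and 16 FPKM in the VEGFA-LNC controls and 9.47 and 10.5 FPKM in the VEGFC-LNC controls, with 583 and 750 reads against 187 and 528 (log2 FC −0.68, SE 0.13, FDR 0.0172). For both, the *VEGFC-LNC* controls were the lower set, and the 2 sets did not overlap, as held for 82.9% of all tested genes. The deletion clones are each compared with their own controls in the study, and these controls start from levels of *VEGFA* that differ 2.76-fold and levels of *VEGFC* that differ 1.6-fold. Of the 14 genes of VEGF ligands, receptors and processing, 3 were lower and 0 higher (21.4% called, median log2 FC −0.52). The third was *PLAT*, tissue plasminogen activator (735 and 771 against 238 and 231 FPKM, log2 FC −1.68, SE 0.45, FDR 0.0434). The exact two-sided permutation test of 2 against 2 libraries cannot give a p below 0.33 for a single gene.

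**Figure D1:**
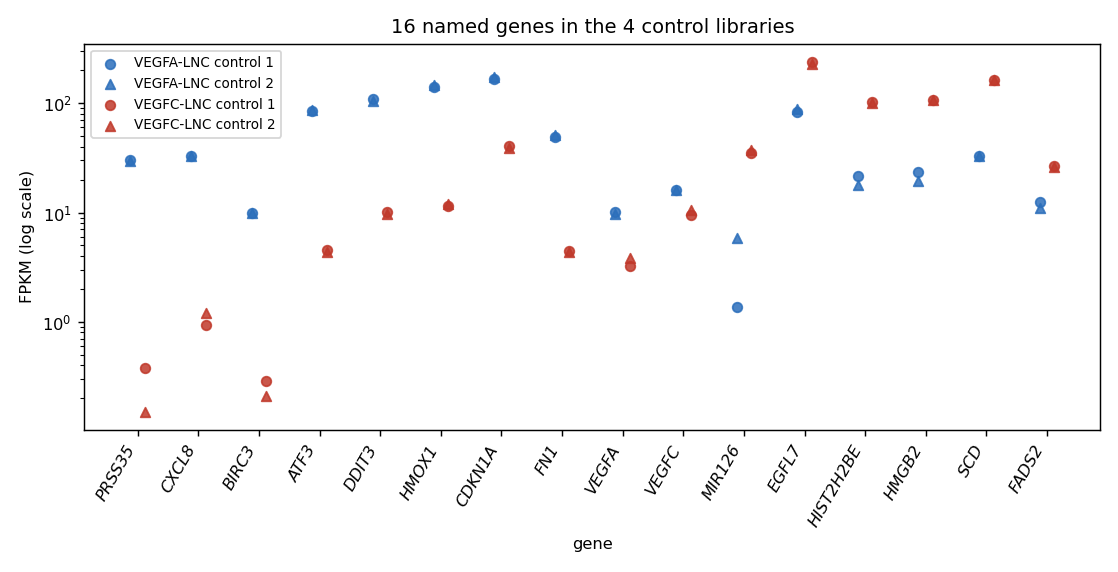
FPKM on a log scale of 16 named genes in the 4 control libraries, with blue symbols for the VEGFA-LNC controls and red symbols for the VEGFC-LNC controls (circles, library 1, and triangles, library 2). From *PRSS35* to *VEGFC* both red symbols lie below both blue ones, and from *MIR126* to *FADS2* both lie above them. The libraries of a set lie furthest apart for *MIR126* and *PRSS35*, which rest on few reads in one set.

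Of 24 genes of angiopoietins, platelet-derived growth factors and further angiogenic factors, 6 were lower and 0 higher (25% called, median log2 FC −0.49), 9 had a positive log2 FC, and 5 were lower without a member that passed the minimum through the *VEGFA-LNC* controls alone. *ANGPTL4*, a hypoxia- and lipid-induced secreted inhibitor of lipoprotein lipase, was at 61.3 and 68.2 FPKM in the VEGFA-LNC controls and 5.83 and 5.67 FPKM in the VEGFC-LNC controls (log2 FC −3.47, SE 0.55, FDR 0.00878). *EDN1*, encoding the vasoconstrictor endothelin 1, was at 44.3 and 43.1 against 11.7 and 10.1 FPKM (log2 FC −1.99, SE 0.39, FDR 0.0168). The laminin-related *NTN4* was at 68.7 and 74.3 against 20.9 and 20.8 FPKM (log2 FC −1.77, SE 0.24, FDR 0.00562). *SLIT2*, a guidance ligand, was at 2.57 and 2.87 against 0.867 and 0.851 FPKM (log2 FC −1.55, SE 0.35, FDR 0.0257). *APLN*, the tip-cell peptide apelin, pointed the other way with 21.2 and 22.7 against 72.7 and 76.9 FPKM but did not pass the test (log2 FC 1.76, FDR 0.104). Of the FGF genes, *FGF1* (0.894 and 0.87 against 0.086 and 0.079 FPKM, log2 FC −2.43, SE 0.33, FDR 0.00572), *FGF5* (19.6 and 19.4 against 10.3 and 11.5 FPKM, log2 FC −0.83, SE 0.24, FDR 0.0499) and the inhibitor *SPRY2* (20.6 and 20.7 against 8.07 and 7.84 FPKM, log2 FC −1.36, SE 0.30, FDR 0.0244) were lower, 3 of 18 (16.7%, near the 12.7% of all genes), and *FGF1* passed the minimum through the *VEGFA-LNC* controls alone. In the Notch pathway the ligand genes *JAG1* (70.5 and 75 against 22.7 and 21.1 FPKM, log2 FC −1.73, SE 0.33, FDR 0.0161) and *JAG2* (1.15 and 1.36 against 0.544 and 0.562 FPKM, log2 FC −1.05, SE 0.28, FDR 0.0436) and the target gene *HEY2* (0.712 and 0.598 against 0 and 0.016 FPKM, log2 FC −2.81, SE 0.58, FDR 0.0201) were lower, 3 of 22, which is a share (13.6%) near the 12.7% of all genes. Of 18 matrix metalloproteinases and inhibitors 3 were lower (16.7%, again near 12.7%), *MMP15* (1.97 and 2.09 against 0.895 and 0.839 FPKM, log2 FC −1.14, SE 0.21, FDR 0.0139), *MMP19* (0.514 and 0.475 against 0.031 and 0.062 FPKM, log2 FC −2.03, SE 0.44, FDR 0.023) and *RECK* (3.28 and 3.58 against 1.92 and 1.85 FPKM, log2 FC −0.83, SE 0.21, FDR 0.0365). *MMP19* passed the minimum through the *VEGFA-LNC* controls alone.

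The circadian clock list had 6 lower and 1 higher of 17 members (41.2% called, median log2 FC −0.76). *PER1*, a repressor of the clock, was at 7.1 and 6.9 against 2.23 and 1.89 FPKM (log2 FC −1.72, SE 0.32, FDR 0.0147), and *CRY2*, another repressor, at 5.96 and 6.98 against 2.42 and 2.19 FPKM (log2 FC −1.45, SE 0.23, FDR 0.00947). *NFIL3* was at 15.5 and 16.4 against 6.24 and 6.51 FPKM (log2 FC −1.31, SE 0.19, FDR 0.0067). *NR1D1*, encoding the nuclear receptor REV-ERBα, was at 11.1 and 9.64 against 4.46 and 4.02 FPKM (log2 FC −1.27, SE 0.32, FDR 0.0361). *NPAS2*, an activator that pairs with BMAL1, was the higher one, at 2.62 and 2.5 against 4.95 and 4.7 FPKM (log2 FC 0.89, SE 0.18, FDR 0.0177). Chosen after its values were seen, *ARNTL*, which encodes BMAL1 itself, was a lower DEG, at 5.09 and 5.21 against 3.16 and 2.46 FPKM (log2 FC −0.86, FDR 0.023). *NPAS2* and *ARNTL* thus went opposite ways. The count of 6 was 10 with the spread of the controls alone and 0 without any 1 control library. Of 16 YAP targets, 4 were lower and 0 higher (25% called), among them *CTGF* (195 and 202 against 34.3 and 32.5 FPKM, log2 FC −2.57, SE 0.72, FDR 0.0478) and the tissue factor gene *F3* (0.965 and 1.47 against 0.397 and 0.225 FPKM, log2 FC −1.68, SE 0.41, FDR 0.0326). Of 35 genes of hypoxia and glycolysis, 6 were lower (17.1% called), including *ADM*, adrenomedullin (13.4 and 13.6 against 5.59 and 6.11 FPKM, log2 FC −1.19, SE 0.31, FDR 0.0373), and *PFKFB3* (10.2 and 10.5 against 4.61 and 4.27 FPKM, log2 FC −1.20, SE 0.16, FDR 0.00562), but *LDHA* (341 and 343 against 339 and 337 FPKM) and *PGK1* (112 and 117 against 109 and 108 FPKM) had log2 FCs of −0.02 and −0.08 that did not pass the test. Interferon-stimulated genes had 2 lower of 59 (3.39%, median log2 FC −0.34), *RSAD2* (0.87 and 0.86 against 0.06 and 0.165 FPKM, log2 FC −2.23, SE 0.57, FDR 0.0373) and *IRF7* (16.6 and 17.3 against 4.16 and 4.17 FPKM, log2 FC −2.00, SE 0.55, FDR 0.0461).

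In the opposite direction, the gene with the largest increase among DEGs with at least 1 FPKM was *MIR126*, the hairpin of the endothelial microRNA 126, which restrains inhibitors of VEGF signalling. It was at 1.37 and 5.8 FPKM in the VEGFA-LNC controls and 35.1 and 37.4 FPKM in the VEGFC-LNC controls (log2 FC 3.63, SE 0.69, FDR 0.0151). The values rest on 2 and 11 reads in the *VEGFA-LNC* controls and on 28 and 76 reads in the *VEGFC-LNC* controls. With the reads of a set summed, the ratio was 9.49, with a 95% interval of 5.31 to 18.4 that covers counting error only. The hairpin (chromosome 9, 139565054 to 139565138, plus strand, hg19) lies inside the gene *EGFL7*, which encodes a secreted endothelial matrix protein and is read from the same strand. *EGFL7* itself was at 83.1 and 88 FPKM in the VEGFA-LNC controls and 240.2 and 230.4 FPKM in the VEGFC-LNC controls (log2 FC 1.46, SE 0.32, FDR 0.0234). Reads of the hairpin cannot be told from those of the unspliced host transcript, and total RNA libraries of this kind do not measure the mature microRNAs. The mature arms are shown from RefSeq (GRCh38.p14) as the product of this locus, with the seed (bases 2 to 8) in capitals.
hsa-miR-126-5p: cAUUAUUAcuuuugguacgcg
hsa-miR-126-3p: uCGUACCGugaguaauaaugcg

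Further small RNAs rested on few reads. *SNORD104* went from 10 reads in the *VEGFA-LNC* controls to 42 reads in the *VEGFC-LNC* controls (ratio 4.98, 95% interval 2.46 to 11.1), *SNORA21B* from 8 to 60 reads (ratio 8.90, 4.24 to 21.5) and *SNORA31B* from 14 to 86 reads (ratio 7.29, 4.12 to 13.9). Of 99 small nucleolar and Cajal body RNAs, 4 were higher and 7 lower (11.1% called, near the 12.7% of all genes). The Cajal body RNAs *SCARNA5* (23.7 and 22.1 against 0.761 and 2.54 FPKM, log2 FC −3.93, SE 0.70, FDR 0.0125), *SCARNA6* (21.9 and 23.9 against 2.38 and 4.37 FPKM, log2 FC −2.79, SE 0.64, FDR 0.0269) and *SCARNA10* (56.6 and 59.4 against 22.1 and 17.3 FPKM, log2 FC −1.56, SE 0.39, FDR 0.0357) were lower, as was *SNORD133* (292 and 339.7 against 20.6 and 26.5 FPKM, log2 FC −3.75, SE 0.76, FDR 0.0189). Of 5 tested genes in a list of other small structured RNAs, 1 was lower, *RPPH1*, and 0 were higher (20% called, against 12.7% of all genes). *RN7SL3*, outside this list, was a lower DEG as well. *RPPH1*, the RNA of ribonuclease P, was at 19894 and 21650.1 FPKM in the VEGFA-LNC controls and 3058 and 2981 FPKM in the VEGFC-LNC controls (log2 FC −2.78, SE 0.49, FDR 0.012), and *RN7SL3*, a copy of the signal recognition particle RNA, at 20699 and 16452 FPKM in the VEGFA-LNC controls and 4825 and 5225 FPKM in the VEGFC-LNC controls (log2 FC −1.88, SE 0.49, FDR 0.0394). *RMRP*, the related RNA of mitochondrial RNA processing, was at 8420.1 and 8521 against 5556 and 6606 FPKM and was no DEG (FDR 0.463). *RN7SL3* and *RMRP* were chosen after their values were seen, and reads of *RN7SL3* may be shared with its near-identical copies.

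Genes of DNA replication, mitosis and histones had higher values in the *VEGFC-LNC* controls almost throughout, but few of them were DEGs. All 64 tested histone genes had a positive log2 FC, with a median of 2.17 and a range from 0.16 to 3.22. Of 60 genes of mitosis 59 were positive (median 1.39), and of 62 genes of DNA replication 61 were positive (median 1.15). Among all tested genes 5584 of 13333 were positive. As DEGs, 3 histone genes (4.69%), 1 gene of mitosis (1.67%) and 3 genes of DNA replication (4.84%) were called, which is less than the 12.7% of all genes. The fit takes its spread from all 10 libraries, and the median SD of a gene was 0.287 and 0.249 on the log2 scale between clones of a deletion against 0.065 and 0.0639 within the control sets. With the spread of the 4 control libraries alone 63 histone genes, 59 genes of mitosis and 52 genes of DNA replication were DEGs, against 33.0% of all tested genes. Without *VEGFA-LNC* deletion clone 1, which was added after seeing the data, these numbers were 55, 16 and 30, and without any 1 control library they were 0.

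Of the single genes, *HIST1H1E*, a linker histone, was at 42.2 and 36.4 FPKM in the VEGFA-LNC controls and 247 and 239 FPKM in the VEGFC-LNC controls (log2 FC 2.63, SE 0.74, FDR 0.0489). *HIST2H2BE* was at 21.7 and 17.8 against 102 and 101 FPKM (log2 FC 2.36, SE 0.58, FDR 0.033) and *HIST1H2AC* at 47.1 and 42 against 163 and 166 FPKM (log2 FC 1.88, SE 0.50, FDR 0.0403). Histone genes have near-identical copies, and reads may have been divided among them in counting. *CDC25B*, the phosphatase that starts mitosis, was at 29.1 and 29 FPKM in the VEGFA-LNC controls and 81.2 and 76.3 FPKM in the VEGFC-LNC controls (log2 FC 1.44, SE 0.26, FDR 0.0139). The replication gene *CDC45* was at 4.53 and 5.21 against 14.4 and 13.9 FPKM (log2 FC 1.52, SE 0.42, FDR 0.0468). *GINS3*, a part of the replicative helicase, was at 9.55 and 9.84 against 19.1 and 18.4 FPKM (log2 FC 0.94, SE 0.13, FDR 0.00572). *POLD3* was at 4.47 and 4.8 against 8.27 and 8.3 FPKM (log2 FC 0.82, SE 0.23, FDR 0.0459). Other well-known members, chosen after their values were seen, did not pass the test. The proliferation antigen gene *MKI67* was at 8.35 and 7.65 against 33.3 and 30.1 FPKM (FDR 0.258) and *TOP2A* at 24.2 and 22.6 against 69.7 and 68.2 FPKM (FDR 0.362). *CCNB1*, cyclin B1, was at 17 and 16.4 against 36.3 and 38.6 FPKM (FDR 0.424) and *MCM6* at 10.7 and 11.2 against 34.6 and 34 FPKM (FDR 0.188). *PCNA*, the sliding clamp and also a p53 target, was at 153 and 166 against 179 and 194 FPKM, with a log2 FC of 0.23.

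Further higher genes lay outside these lists. *HMGB2*, a DNA-bending protein abundant in dividing cells, was at 23.4 and 19.3 FPKM in the VEGFA-LNC controls and 108 and 108 FPKM in the VEGFC-LNC controls (log2 FC 2.34, SE 0.50, FDR 0.0218). Chosen after their values were seen, the related genes *HMGB1* (23.9 and 22.6 against 73.2 and 72 FPKM), *HMGB3* (5.81 and 4.55 against 13.2 and 13.6 FPKM) and *HMGN5* (1.17 and 0.586 against 4.08 and 3.83 FPKM) were DEGs with log2 FCs of 1.64, 1.36 and 2.12. So were *PSIP1*, a chromatin-tethering protein (6.01 and 5.33 against 24.8 and 21.8 FPKM, log2 FC 2.02), *ANP32A*, a histone-binding phosphatase inhibitor (19.2 and 19 against 56.8 and 52.3 FPKM, log2 FC 1.51), *STMN1*, which destabilises microtubules (62 and 60.3 against 164 and 171 FPKM, log2 FC 1.45), and the splicing factor gene *HNRNPA1* (209.9 and 170.1 against 501 and 486 FPKM, log2 FC 1.38). *ANP32AP1*, a pseudogene of *ANP32A*, was at 2.89 and 3.12 against 15.4 and 15.2 FPKM (log2 FC 2.31), and reads of the pseudogene and its parent may be shared. The nuclear lncRNA *NEAT1*, the scaffold of paraspeckles, was at 45.4 and 46 against 113 and 117 FPKM (log2 FC 1.33).

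The level of these lists in the single libraries placed the control sets among the clones. Relative to the mean of the *VEGFA-LNC* controls, the median mitotic gene was at 1.43 and 1.38 on the log2 scale in the *VEGFC-LNC* controls. It was at 1.16, −2.03 and −1.26 in the *VEGFA-LNC* deletion clones 1 to 3 and at 0.65, −1.25 and −0.24 in the *VEGFC-LNC* deletion clones 1 to 3. The clones of either deletion thus lay on both sides of the *VEGFA-LNC* controls, and none reached the *VEGFC-LNC* controls. Histone genes had the same order at the top, with 2.14 and 2.18 in the *VEGFC-LNC* controls, 1.99 in *VEGFA-LNC* deletion clone 1 and 1.46 in *VEGFC-LNC* deletion clone 1, and the other 4 clones were between −1.04 and 0.59. For the p53 targets the *VEGFC-LNC* controls were the lowest libraries, at −1.14 and −1.05, and the clones lay between −0.70 and 0.33.

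**Figure D2:**
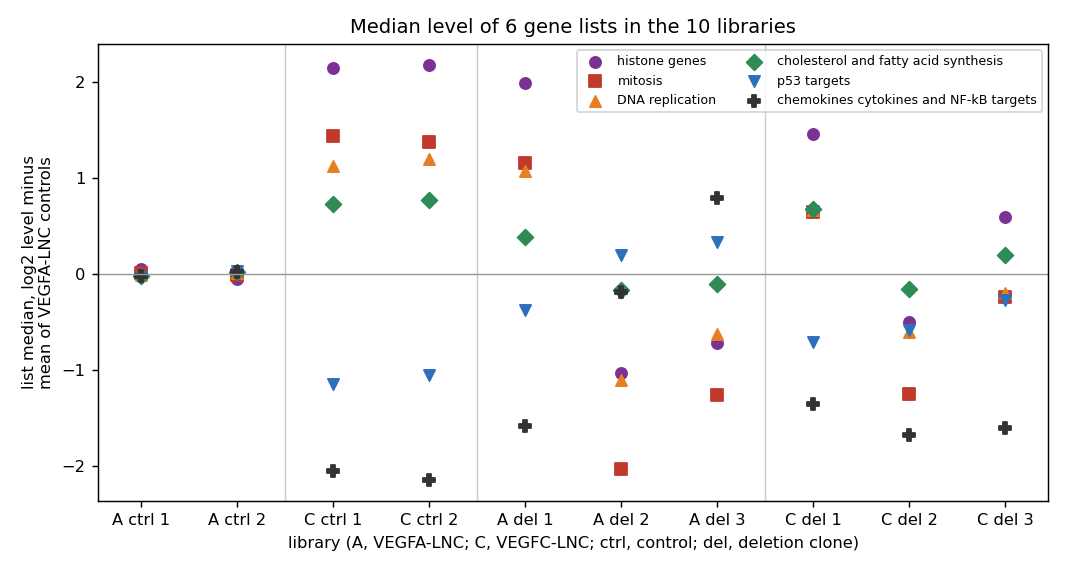
Median level of 6 gene lists in each of the 10 libraries, as the log2 level of each member minus its mean in the VEGFA-LNC controls (A, VEGFA-LNC, C, VEGFC-LNC, ctrl, control, del, deletion clone). The 2 libraries of each control set coincide, and the replication, mitosis and histone medians of the 6 clones spread from −2.03 to 1.99, while the medians of the VEGFC-LNC controls in these lists lie between 1.13 and 2.18.

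Part of the genes of cholesterol and fatty acid synthesis were higher. Of 35 tested members, 8 were higher and 0 lower (22.9% called), 31 had a positive log2 FC and the median was 0.73. *SCD*, the desaturase that makes oleic acid, was at 32.9 and 32.9 FPKM in the VEGFA-LNC controls and 161 and 162 FPKM in the VEGFC-LNC controls (log2 FC 2.29, SE 0.36, FDR 0.00841). *HMGCS1*, which makes the precursor of mevalonate, was at 4.14 and 4.18 against 13.2 and 13.3 FPKM (log2 FC 1.65, SE 0.35, FDR 0.0215). *FADS2*, another desaturase, was at 12.4 and 11 against 26.6 and 26.2 FPKM (log2 FC 1.17, SE 0.28, FDR 0.0289). *SREBF1*, a transcription factor of this programme, was a DEG as well (8.06 and 7.31 against 13.3 and 13.1 FPKM, log2 FC 0.77). *SQLE* (20.4 and 20.1 against 39.4 and 40.2 FPKM, FDR 0.0525) and the feedback regulator *INSIG1* (9.19 and 10.8 against 35.8 and 39.5 FPKM, FDR 0.088) did not pass the test. These 3 were chosen after their values were seen. The count of 8 was 21 with the spread of the controls alone, 15 without *VEGFA-LNC* deletion clone 1, 13 with median-of-ratios scaling and 0 without any 1 control library.

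The same promoter windows were searched for elements known from these programmes. CCAAT, on either strand, was found for 74.3% of the cholesterol list, 55.0% of the mitosis list and 84.4% of the histone list, against 33.2% of all tested genes, 36.5% of the higher DEGs and 32.4% of the lower ones. The octamer ATTTGCAT was found for 35.9% of the histone genes and 1.38% of all genes, and TTTGAA, a form of the cell cycle homology region, for 26.7% of the mitosis list and 9.59% of all genes. The octamer was found for 2.83% of the higher and 1.23% of the lower DEGs, and TTTGAA for 9.25% and 8.69%. Of other elements searched, CACCCCAC, a sterol regulatory element, was found for 8.57% of the cholesterol list, 4.11% of the higher DEGs, 1.92% of the lower DEGs and 2.16% of all genes. The AP-1 site, TGA followed by any base and TCA, was found for 6.99% of the lower DEGs, 2.83% of the higher DEGs and 4.54% of all genes. The windows of *HMGCS1* (chr5:43313615-43313864, minus strand, with ATTGG, the reverse complement of CCAAT, in capitals) and *HIST2H2BE* (chr1:149858233-149858482, minus strand, with the octamer in capitals) are shown as higher DEGs of these programmes that hold a match. In *HMGCS1* the matches begin 198 and 55 bases before the start, and in *HIST2H2BE* the octamer begins 46 bases before it.
*HMGCS1*: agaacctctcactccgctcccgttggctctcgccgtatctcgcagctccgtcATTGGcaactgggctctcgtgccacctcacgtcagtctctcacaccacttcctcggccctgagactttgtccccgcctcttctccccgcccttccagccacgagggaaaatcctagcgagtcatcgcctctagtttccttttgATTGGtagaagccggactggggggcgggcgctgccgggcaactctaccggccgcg
*HIST2H2BE*: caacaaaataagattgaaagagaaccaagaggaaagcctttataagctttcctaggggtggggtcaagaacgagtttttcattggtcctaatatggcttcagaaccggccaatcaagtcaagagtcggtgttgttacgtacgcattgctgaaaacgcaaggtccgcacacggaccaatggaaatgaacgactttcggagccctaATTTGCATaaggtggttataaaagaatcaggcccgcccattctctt

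Some of the largest differences belonged to genes outside these programmes. *PRSS35*, encoding a serine protease-like protein, was at 30.4 and 29.7 FPKM in the VEGFA-LNC controls and 0.38 and 0.149 FPKM in the VEGFC-LNC controls, with 1321 and 1677 reads against 9 and 9 (log2 FC −6.45, SE 0.95, FDR 0.00677). *KCTD4* was at 5.93 and 5.72 against 0.05 and 0.176 FPKM (log2 FC −4.86, SE 0.51, FDR 0.00251) and *ATP6V0D2*, a subunit of the proton pump of acidic compartments, at 4.9 and 4.73 against 0.134 and 0.105 FPKM (log2 FC −4.49, SE 0.58, FDR 0.00503). *FOLR3*, a secreted folate receptor, had 24 and 62 reads in the *VEGFA-LNC* controls and 0 in both *VEGFC-LNC* controls, which makes it at least 24.2-fold lower against a floor of 3 reads over the set. It passed the minimum through the *VEGFA-LNC* controls alone, as did *PRR9*. *SERPINB7*, a serine protease inhibitor, was at 5.66 and 6.43 against 0.163 and 0.319 FPKM (log2 FC −4.21, SE 0.58, FDR 0.00575), and *PRR9*, a proline-rich protein of keratinocytes, at 3.24 and 3.9 against 0.086 and 0.101 FPKM (log2 FC −4.24, SE 0.41, FDR 0.00228). On the higher side *LOC728715* rested on 5 against 54 reads (ratio 12.8, 95% interval 5.16 to 41.0) and *TNFRSF6B*, a decoy receptor for FAS ligand, on 8 against 48 reads (ratio 7.12, 3.34 to 17.4). *LOC728715* passed the minimum through the *VEGFC-LNC* controls alone, as did *SNORD104* and *CD74*, and *LINC01260* through the *VEGFA-LNC* controls alone. *LOC102724434* was at 3.82 and 3.56 against 20.7 and 20.04 FPKM (log2 FC 2.43, SE 0.51, FDR 0.0204). Chosen after their values were seen, *RELN*, the extracellular signal reelin, was at 4.16 and 4.26 against 0.183 and 0.198 FPKM (log2 FC −3.89). *IL1RL1*, the receptor of interleukin-33, was at 45.1 and 46.4 against 3.28 and 2.92 FPKM (log2 FC −3.84). *SPHK1*, which makes sphingosine 1-phosphate, was at 47.6 and 49.1 against 9.3 and 9.76 FPKM (log2 FC −2.33), and all 3 were lower DEGs.

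Other broad classes held few DEGs. Of 81 genes of oxidative phosphorylation 2 were lower (2.47%, median log2 FC −0.07), *UQCR11* (47.1 and 45.6 against 28 and 28.1 FPKM, log2 FC −0.72) and *NDUFA2* (29.2 and 26.4 against 17.5 and 18.9 FPKM, log2 FC −0.60). Of 82 cytosolic ribosomal protein genes 1 was lower (1.22%), *RPS21* (654 and 758 against 364 and 421 FPKM, log2 FC −0.85), although the median of the list was 0.27. Of 28 housekeeping genes 2 were lower (7.14%, median −0.04), *EMC7* (55.6 and 65.1 against 30.5 and 32.6 FPKM, log2 FC −0.93) and *C1orf43* (72.8 and 79.4 against 40.2 and 44.8 FPKM, log2 FC −0.84), and *GAPDH* was at 1807 and 1862 against 2195 and 2129 FPKM (FDR 0.654) and *ACTB* at 1271 and 1213 against 1909 and 1911 FPKM (log2 FC 0.62, FDR 0.142). In the MHC class II list 1 of 7 genes was higher (14.3%), the invariant chain gene *CD74* (0.078 and 0.18 against 0.926 and 0.726 FPKM, log2 FC 2.04). None of 22 genes of MHC class I and peptide loading, 29 clustered protocadherins or 4 metallothioneins was a DEG. Zinc finger genes named *ZNF* (345 tested) and lncRNAs named *LINC* (143 tested) had 11.0% and 11.2% of members called, near the 12.7% of all genes. Their DEGs with the largest differences were *ZNF488* (1.23 and 1.34 against 4.59 and 4.83 FPKM, log2 FC 1.80) and *ZNF114* (0.791 and 0.86 against 0.128 and 0.1 FPKM, log2 FC −2.11) for the former, and *LINC02154* (2.31 and 2.12 against 0 and 0.087 FPKM, log2 FC −4.08) and *LINC01260* (4.09 and 4.31 against 0.274 and 0.108 FPKM, log2 FC −3.95) for the latter.

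DEGs lay on every autosome and on the X chromosome. The median log2 FC of a chromosome ran from −0.249 (chromosome 11, 774 genes, 15.9% called) to 0.0233 (chromosome 18, 194 genes, 13.9% called). In 1231 windows of 50 neighbouring genes, the highest median, 2.14, lay on chromosome 6 from 26104176 to 27858570 (hg19), where 38 of the 50 genes were histone genes, and it was 0.132 without them. Among the 1215 windows with under 5 histone genes the medians ran from −0.507 to 0.325. The lowest lay on chromosome 11 from 65684283 to 67397408, with 12 lower DEGs and 0 higher ones among its 50 genes. A window on chromosome X from 151867232 to 154033802 (median −0.45) held 17 lower DEGs and 0 higher ones among its 50 genes. Of all tested genes, 9.76% were lower DEGs, so that these windows held more of them. By length of the transcript, the percentage of DEGs was lowest, at 8.0, in the shortest class, and the median log2 FC between −0.142 and 0.165.

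The same contrast can be made in other libraries, with the *VEGFC-LNC* deletion clones set against the *VEGFA-LNC* deletion clones. These clones share no library with the controls. Both contrasts take the spread of a gene from the same fit, for the larger part from these clones. Their DEGs are thus not independent, and a gene with a small spread tends to pass in both. Between the clones, 994 genes were DEGs (7.46% of those tested), 216 of them higher and 778 lower in the *VEGFC-LNC* clones. Of these, 291 were also DEGs between the control sets, which is 29.3% of the clone DEGs and 17.2% of the control DEGs, with the same direction for 264 and the opposite direction for 27. Of the 1690 DEGs of the controls, 80.5% had the same sign between the clones, against 64.7% of all tested genes, and after centring each difference on its median these shares were 75.0% and 62.8%. Without centring, the share was 84.6% for the lower DEGs and 66.6% for the higher ones. The median clone difference of all tested genes was −0.141, so that a lower gene keeps its sign more easily than a higher one. The median log2 difference of the control DEGs was much smaller between the clones, at −0.37 for those lower in the controls and 0.13 for those higher. Across all 13333 genes, which are not independent of each other, the 2 differences had a Pearson r of 0.385 and a Spearman rho of 0.377. The clones carry different deletions, so that this contrast holds the effect of the deletions as well.

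Named genes with the same direction in both contrasts included *SERPINB7* (log2 FC −4.21 between the controls and −4.63 between the clones), *PRSS35* (−6.45 and −3.32), *BIRC3* (−4.85 and −2.5), *TRAF1* (−4.08 and −2.15), *CLDN1* (−2.37 and −2.55) and *MIR126* (3.63 and 2.92), which were DEGs in both. *VEGFC* was lower in both as well (−0.68 and −1.17). Genes with opposite directions, DEGs in both, were chosen after their values were seen. *LBH*, a transcription cofactor, was at 2.37 and 2.61 against 0.539 and 0.296 FPKM in the controls (log2 FC −2.36) and had a log2 FC of 3.36 between the clones. The interleukin-7 receptor gene *IL7R* was at 13.4 and 12.7 against 1.98 and 2.15 FPKM (log2 FC −2.60, 2.92 between the clones). The endothelin gene *EDN1* had −1.99 and 1.49, *NTN4* −1.77 and 1.6, *THBS1* −1.36 and 0.97, and *RCAN1*, an inhibitor of calcineurin, −2.71 and 0.83. *ZNF395* (1.48 and −1.31), *SLC22A18* (1.77 and −2.42) and *FAM133A* (1.48 and −2.80) were higher in the *VEGFC-LNC* controls and lower in the *VEGFC-LNC* clones. *VEGFA* was lower in the controls and 0.38 between the clones (FDR 0.358), and the test of the difference gave an FDR of 0.0559.

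**Figure D3:**
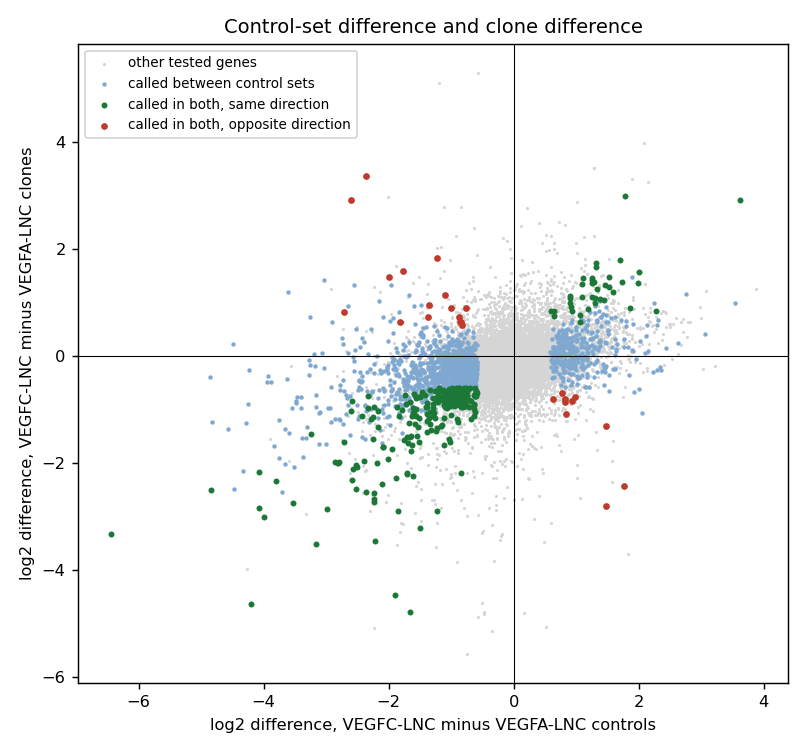
Log2 difference between the VEGFC-LNC and VEGFA-LNC controls (horizontal axis) and between the VEGFC-LNC and VEGFA-LNC deletion clones (vertical axis), 1 point per tested gene. Blue points are DEGs of the control sets alone, green points are DEGs in both contrasts with the same direction (264 genes) and red points are DEGs in both with opposite directions (27 genes, of which 26 are drawn), and the points in the lower left outnumber those in the upper right.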

How the data were processed

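RNA-Seq was performed on rRNA-depleted total RNA of 10 libraries of EA.hy926 cells. The authors deposited a table of FPKM values (fragments scaled to transcript length and library depth) per RefSeq transcript with hg19 coordinates, and the submitters' processing notes name Trim Galore 0.4.4, STAR 2.5.4b and featureCounts. Groups were taken from the labels. For each of 27945 symbols 1 transcript was kept, and 42 rows naming no gene (0.0211% of summed FPKM) were left out. FPKM values were whole multiples of 1 read in every library (100% of values checked, tolerance 0.1 reads), which gave the reads quoted. Intervals and floors cover counting error only.

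Genes with at least 1 cpm in 2 of 10 libraries (13333) were tested with limma 3.58.1 in R 4.3.3 on log2(FPKM + 0.1), which understates changes of low genes, with a mean-variance trend, all groups in 1 fit and Benjamini-Hochberg adjustment over all genes. DEGs had an FDR under 0.05 and at least 1.5-fold change. Data were simulated for the control sets, with 13333 genes and the same spread for all genes of a group. In these, 0.0% of genes changed 1.5-fold, 53.0% of those changed 2-fold and 98.5% of those changed 4-fold were recovered. The count test of the study's methods was not run, since the deposited values are FPKM, and the recovered reads were fitted with limma's voom as an alternative (1680 DEGs, 1556 of them shared). Gene lists are described by counts and medians without a set test.

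Genes named are the 12 DEGs in each direction with the largest difference and at least 1 FPKM in the higher set, up to 4 DEGs per list and direction, *VEGFA*, *VEGFC* and genes named in the study. Marker genes, genes that are no DEGs and those stated so were named beyond this rule after their values were seen. The gene lists and the comparison itself were chosen with earlier results of these data known. Promoter windows (250 bases before the start of the kept transcript) were read from the hg19 (GRCh37) genome for 13333 genes and searched on both strands. Python 3.11.15, numpy 2.4.6, pandas 2.3.3, scipy 1.17.1 and matplotlib 3.10.9 were used. Alternatives were other pseudocounts, filters, scalings, sources of spread and transcripts, voom, a replicate block, and leaving out each library. Library 1 and library 2 of the control sets share only a number, with correlations of deviations of −0.00556. Values of a few genes and the promoter window of 1 gene are not reported here.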

Additional observations from a re-analysis of the deposited data

Results flagged for a closer look

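The difference between the control sets was itself set against the difference between the deletion clones, in the same limma fit, and 194 of 13333 genes passed (1.46%, FDR under 0.05 and at least 1.5-fold), 132 of them among the DEGs of the control sets. The named genes among them are given here with the log2 difference between the controls minus that between the clones. They had been picked for large control differences or after their values were seen, which makes a gap of this sign likely to be large. No group holds 4 or more libraries, so that no single library could be tested as an outlier.

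Among genes that were lower in the *VEGFC-LNC* controls and higher in the *VEGFC-LNC* clones, as DEGs in both, the values were *LBH* (−5.72), *IL7R* (−5.52), *RCAN1* (−3.55), *EDN1* (−3.48), *NTN4* (−3.37), *CACNA2D1* (−3.08), *PTGR1* (−2.47), *THBS1* (−2.33) and *SKIL* (−1.90). For genes whose controls differed downward without an opposite DEG between the clones they were *HMOX1* (−4.81), *ATP6V0D2* (−4.71), *KCTD4* (−4.48), *PRR9* (−3.98), *ITGB8* (−3.90), *CHAC1* (−3.55), *RELN* (−3.42), *ATF3* (−3.37), *DDIT3* (−2.64), *GADD45B* (−2.36), *COL5A1* (−1.99), *ITGAV* (−1.82), *ME1* (−1.51), *PPP1R15A* (−1.36), *PFKFB3* (−1.34) and *DUSP1* (−1.25). Stress-induced factors (*ATF3*, *DDIT3*, *CHAC1*, *HMOX1*, *PPP1R15A*) and adhesion or matrix genes (*ITGB8*, *ITGAV*, *COL5A1*) belong to the latter.

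In the other direction, opposite DEGs were *FAM133A* (4.27), *SLC22A18* (4.19), *ZNF395* (2.79) and *MME* (1.91), and the further genes were *PSIP1* (1.74), *SNORD104* (1.42), *NPAS2* (1.20) and *GINS3* (0.98).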

How the results depend on the processing

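The number of DEGs between the control sets depended on the spread and on single libraries. With the 4 control libraries alone it was 4401 (1654 higher, 2747 lower). With the pairs averaged it was 0 (0 higher, 0 lower; 1224 genes at an unadjusted p under 0.05). Median-of-ratios scaling gave 587 higher. Leaving out 1 library gave 33 to 3068 in all, 1 to 983 higher and 32 to 2085 lower. Between the clones, 914 to 1982 genes were DEGs with 1 library left out, the most without *VEGFA-LNC* deletion clone 1. The share of control DEGs with the same sign between the clones was 77.5% with no filter and 76.0% with median-of-ratios scaling. Members of lists called with the 4 controls alone were 26 (NF-κB), 22 (TGF-β), 18 (ATF4), 10 (clock), 21 (matrix), 21 (cholesterol), 59 (mitosis), 52 (DNA replication) and 63 (histones). The stricter filter gave 8 for NF-κB and 8 for TGF-β, no filter gave 12 for matrix and 1 for DNA replication, and median-of-ratios scaling gave 5 immediate-early and 13 cholesterol genes. With 1 library left out, an alternative that for the lists was chosen after seeing the data, the ranges were 0 to 23 (NF-κB), 3 to 21 (p53), 0 to 18 (TGF-β), 3 to 12 (ATF4), 1 to 12 (immediate-early), 0 to 9 (clock), 0 to 7 (NRF2), 0 to 16 (matrix), 0 to 15 (cholesterol), 0 to 16 (mitosis), 0 to 30 (DNA replication) and 0 to 55 (histones). The cause was not tested. In simulated data that gave all genes of a group the same spread, 0.0% of genes changed 1.5-fold were recovered. The cut was itself 1.5-fold, and the spread of real genes differs. Some DEGs lay near this size, such as *NDUFA2* (log2 FC −0.60), so that the simulation sets no limit of detection for single genes.

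The libraries of the control sets share a replicate number, but their deviations did not go together (r = −0.00556), so that the numbers were not taken as pairs. With a replicate block 1628 genes were DEGs, 1443 of them shared with the fit without it.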
